A study of Homo sapiens with 96 samples.

Results

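Paeoniflorin and albiflorin are the 2 monoterpene glycosides among the ingredients of peony root (Paeoniae Radix) given to A549 cells, a human lung adenocarcinoma line. The samples were chosen by compound name: 9 libraries of paeoniflorin and 9 of albiflorin, 18 of the 96 in the series. Each isomer was given at 10, 2 and 0.4 µM with 3 libraries per dose, and both were processed in the second of 2 batches with its own 3 vehicle libraries. All groups are the same line, and the labels name no other treatment. What the vehicle was and how long the cells were exposed could not be read from the labels. The labels number 3 replicates per group without saying whether these were separate cultures, so every p-value rests on spread between libraries that may be technical only.

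The isomers are known from peony root, where paeoniflorin is the marker compound of the drug. Both carry a glucose and a benzoyl ester on a pinane-type monoterpene core. They differ in how that core is closed: paeoniflorin has a cage with a hemiketal and an acetal, whereas albiflorin has a lactone. Both have been studied mainly for effects on inflammation, nerve cells and, more recently, tumour cells. The study's title names the Aurora B pathway, whose kinase AURKB works with INCENP, BIRC5 and CDCA8 as the chromosomal passenger complex that corrects chromosome attachment and drives the end of mitosis. The questions here are whether the isomers differ at the same dose and whether the response to either changes with dose.

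The 21 libraries held 19820880 to 35599940 expected counts each. Of 60675 genes, 16978 passed a filter on low counts and were tested. KRT8 (2960 to 5890 CPM, the usual unit of counts scaled to library size) and KRT18 (2470 to 5410 CPM), keratins of simple epithelium, were high in all 21 libraries. EPCAM, an epithelial adhesion molecule, was at 5.06 to 13.2 CPM. SFTPC of mature alveolar cells (at most 0.11 CPM), COL1A2 of fibroblasts (at most 0.348 CPM) and PTPRC of blood cells (at most 0.0497 CPM) were near 0, while COL1A2 reached 595 CPM among the other 54 libraries of the batch. COL1A1, the other chain of type I collagen, was at 30.5 to 124 CPM in the 21 libraries. Over the whole marker lists, the summed level of 22 epithelial markers was 21100 to 30200 CPM with paeoniflorin, 21800 to 24000 with albiflorin and 21500 to 21800 with vehicle. The summed level of 16 fibroblast markers was 769 to 1530, 868 to 994 and 943 to 978 CPM in the same order.

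The libraries were less alike with paeoniflorin than with albiflorin. The share of counts on the 37 genes of the mitochondrial genome was 14.5 to 14.9% in the vehicle libraries. With albiflorin it was 11.4% in replicate 1 at 2 µM and 14.4 to 16.1% in the other 8 libraries. With paeoniflorin it was 8.67, 16.3 and 4.94% at 10 µM, 1.39, 13 and 11.5% at 2 µM, and 15.1, 12.3 and 14.6% at 0.4 µM. Replicates 1 and 3 at 10 µM and replicate 1 at 2 µM were therefore below 10%, and the isomers overlapped at every dose. The mean difference, paeoniflorin minus albiflorin, was -5.33 percentage points at 10 µM, -5.14 at 2 µM and -1.34 at 0.4 µM (two-sided exact permutation p = 0.4, 0.3 and 0.3, n = 3 against 3, which cannot go below 0.10). Over all doses it was -3.94 points (10.9% ± 5 against 14.8% ± 1.4, SD, n = 9 each, exact permutation p = 0.025, and 0.1 after Benjamini-Hochberg adjustment over these 4 comparisons). Replicate 1 of paeoniflorin at 2 µM also lay farthest out on the first principal component of log2 CPM, which held 36.5% of the variance. Counts are given with these libraries and, where a call turns on them, without them. The fit without them has 1 paeoniflorin library at 10 µM and 2 at 2 µM, which are assumed to vary like the libraries of the other groups.

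**Figure D1:**
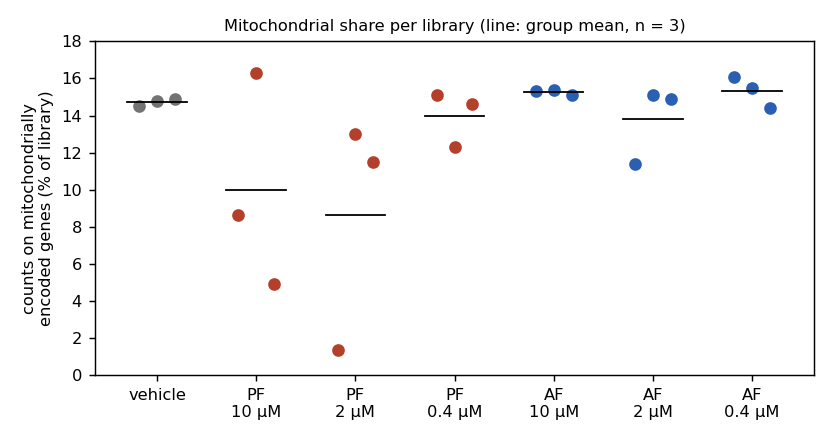
Share of each library's counts on the 37 mitochondrially encoded genes, in percent, for vehicle, paeoniflorin (PF) and albiflorin (AF) at each dose; points are libraries and lines are means of 3. In all, 3 paeoniflorin libraries lie below 10% and 1 of them at 1.39%, while the albiflorin libraries lie between 11.4 and 16.1%.

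At matched dose, no gene passed the test between the isomers. With edgeR's quasi-likelihood test and an adjusted p under 0.05, 0 of 16978 genes (0%) were called at 10 µM, 0 (0%) at 2 µM and 0 (0%) at 0.4 µM. The smallest adjusted p was 0.274, 0.221 and 0.76, and adjusting over the 3 pairs together (50934 tests) also gave 0, with a smallest value of 0.401. Unadjusted p was under 0.05 for 1406, 3358 and 1031 genes. DESeq2 called 19 genes at 10 µM, 27 at 2 µM and 0 at 0.4 µM. The 2 µM result turned on a single library: leaving out replicate 3 of paeoniflorin gave 2068 calls, and leaving out any of the other 5 libraries gave 0. The fit with 2068 calls keeps replicate 1 of paeoniflorin, the library with 1.39% mitochondrial counts.

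A missed threshold does not show that the isomers act alike, so the intervals bound what the data allow. The 95% interval of the isomer difference lay within 1.5-fold either way for 59.1% of genes at 10 µM, 51.7% at 2 µM and 62.5% at 0.4 µM. It lay within 2-fold for 83.1, 79.3 and 84.6%. Without the 3 paeoniflorin libraries under 10% mitochondrial counts, the interval lay within 1.5-fold for 64.3% of 17509, 68.9% of 17543 and 69.8% of 17560 genes with an interval. The share within 2-fold was lower than with all libraries at 10 µM (77.5%) and 0.4 µM (84.2%) and higher at 2 µM (82%).

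The genes nearest the threshold are given by their values, since none passed. At 2 µM these were CST3 (cystatin C, a secreted inhibitor of cysteine proteases), PER1 (a repressor of the circadian clock), DPH7 (an enzyme of diphthamide synthesis) and PAM16 (a part of the mitochondrial protein import motor, whose reads can be shared with an overlapping readthrough gene). CST3 read 195, 125 and 116 CPM with paeoniflorin and 94.1, 84.7 and 80 CPM with albiflorin at 2 µM, a log2 difference of 0.75 (SE 0.15, adjusted p = 0.221). The highest value came from replicate 1, the library with 1.39% mitochondrial counts, and the other 2 paeoniflorin libraries were also above all 3 albiflorin libraries. PER1 read 9.84, 11.1 and 10.7 CPM with paeoniflorin and 15.5, 15.3 and 15.8 CPM with albiflorin, a log2 difference of -0.56 (SE 0.10, adjusted p = 0.221). The groups did not overlap, and the vehicle libraries, at 15.1, 16.8 and 16.2 CPM, spanned the albiflorin values.

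At 10 µM the smallest p-values were those of MIPOL1, HSD17B14 (a hydroxysteroid dehydrogenase), SRRM5 and CNTLN (centlein, a centrosomal protein). MIPOL1 read 6.46, 5.95 and 7.14 CPM with paeoniflorin against 9.46, 8.31 and 10.2 CPM with albiflorin, with vehicle at 9.16 to 9.97 CPM (log2 -0.52, SE 0.096, adjusted p = 0.274). The isomers did not overlap here, while albiflorin and vehicle did. SRRM5 read 2.36, 1.84 and 2.2 CPM against 1.18, 1.02 and 1.1 CPM (log2 0.95, SE 0.19, adjusted p = 0.286). At 0.4 µM the isomers overlapped, at 1.2 to 1.71 against 1.31 to 1.85 CPM (log2 -0.23, SE 0.19).

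At 0.4 µM all 4 genes with the smallest p-values were higher in mean with paeoniflorin, and 3 of them encode mitochondrial proteins. C19orf70 (now MICOS13, part of the complex that holds the cristae of the inner membrane) read 15.4, 17.2 and 19.8 CPM against 13.4, 11 and 9.99 CPM (log2 0.60, SE 0.12, adjusted p = 0.76). ATPIF1, an inhibitor of the mitochondrial ATP synthase running in reverse, read 32.9, 38.2 and 41.6 CPM against 30.2, 26.5 and 26.9 CPM (log2 0.43, SE 0.096, adjusted p = 0.76). NDUFA8, a subunit of respiratory complex I, differed by 0.43 (SE 0.095) and C6orf48, a host gene of small nucleolar RNAs, by 0.41 (SE 0.085). The isomers did not overlap for these genes at this dose. In a fit without the 3 low-mitochondrial libraries, which all belong to the higher doses, 12 genes (0.0681% of 17611) were called at 0.4 µM. They were C19orf70 (log2 0.61), MIF (0.50), CST3 (0.48), C19orf53 (0.45), NDUFA8 (0.43), RPL14 (0.43), C6orf48 (0.42), H2AFX (0.42) and TAF10 (0.40), higher with paeoniflorin, and AKAP9 (-0.37), TNS2 (-0.38) and LYST (-0.73), lower, with adjusted p of 0.0181 to 0.0263. MIF is a secreted cytokine, RPL14 a ribosomal protein, H2AFX a histone variant and TAF10 a part of the general transcription machinery. AKAP9 is a scaffold of the Golgi and centrosome and LYST a regulator of lysosome size. This fit was chosen after the mitochondrial shares were seen. At 10 and 2 µM it called 0 genes (1168 and 1285 at an unadjusted p under 0.05), where the 10 µM value rests on 1 paeoniflorin library with a spread taken from the other groups.

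**Figure D2:**
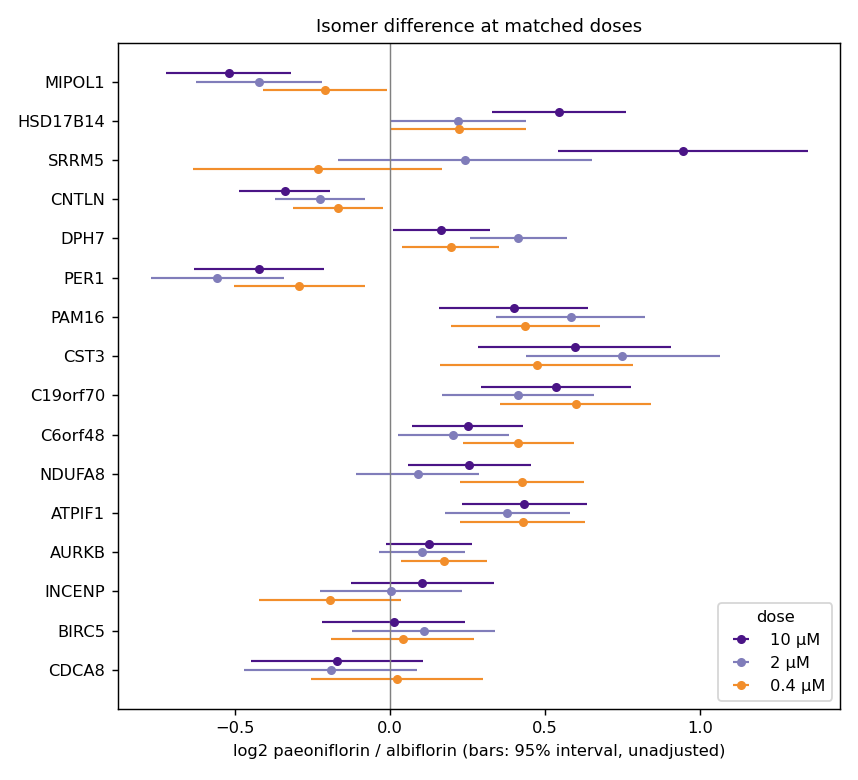
Log2 difference between paeoniflorin and albiflorin (x axis) with its unadjusted 95% interval at 10, 2 and 0.4 µM for the 12 genes with the smallest p-values and for AURKB, INCENP, BIRC5 and CDCA8. CST3, C19orf70, PAM16 and ATPIF1 lie to the right of 0 and PER1 and MIPOL1 to the left at each dose, while SRRM5 is to the right at 10 µM and to the left at 0.4 µM.

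None of the 4 chromosomal passenger genes passed between the isomers at any dose. AURKB read 91.3, 85.6 and 90.7 CPM with paeoniflorin and 81.4, 83.3 and 80.5 CPM with albiflorin at 10 µM, with vehicle at 78.7 to 82 CPM. Its log2 difference was 0.13 (95% interval -0.013 to 0.27) at 10 µM, 0.11 (-0.034 to 0.24) at 2 µM and 0.18 (0.037 to 0.32) at 0.4 µM, with adjusted p of 0.619, 0.345 and 0.797. INCENP differed by 0.11 (-0.12 to 0.34), 0.0052 (-0.22 to 0.23) and -0.19 (-0.42 to 0.037). BIRC5, survivin, differed by 0.013 (-0.22 to 0.24), 0.11 (-0.12 to 0.34) and 0.042 (-0.19 to 0.27). CDCA8, borealin, differed by -0.17 (-0.45 to 0.11), -0.19 (-0.47 to 0.088) and 0.024 (-0.25 to 0.30). CDCA8 was lowest at 25.9 CPM in the paeoniflorin library with 1.39% mitochondrial counts, against 38 to 45.8 CPM in the other 8. Of the 20 tested genes of the Aurora B list, 0 passed at any dose, with a median log2 difference of -0.097, -0.16 and -0.056.

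Averaged over the 3 doses, with 9 libraries of each isomer, genes did pass. The test called 1046 of 16978 genes (6.16%), 618 higher (3.64%) and 428 lower (2.52%) with paeoniflorin. Most differences were small: 119 of the 1046 were at least 1.5-fold and 25 at least 2-fold. The genes nearest the threshold at single doses were again apart. C19orf70 had its lowest, median and highest values at 14.2, 16.1 and 19.8 CPM with paeoniflorin and 9.99, 11.6 and 13.4 CPM with albiflorin, a 1.43-fold difference (log2 0.52, SE 0.067, adjusted p = 0.0031). CST3 was at 112, 125 and 195 CPM against 80, 87.5 and 98 CPM, or 1.52-fold (adjusted p = 0.00324). ATPIF1 was at 32.9, 34.6 and 41.6 against 23.7, 27 and 30.2 CPM, or 1.33-fold (adjusted p = 0.0031). PER1 was at 9.84, 12 and 14.7 against 14.8, 15.5 and 17.9 CPM, 1.34-fold lower with paeoniflorin (adjusted p = 0.00315). MIPOL1 was at 5.95, 6.95 and 7.64 against 8.06, 9.18 and 10.2 CPM, 1.3-fold lower (adjusted p = 0.00393). In none of these 5 genes did a paeoniflorin library fall among the albiflorin ones. They were picked for small p-values at single doses, which the average contains, so their separation here is no second piece of evidence.

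The number of calls over 3 doses depended on single libraries. Leaving out any 1 albiflorin library gave 178 to 720 calls. Leaving out a paeoniflorin library gave 219 and 429 calls (replicates 1 and 3 at 10 µM), 263 and 344 (replicates 2 and 3 at 0.4 µM), 1771 (replicate 1 at 0.4 µM), 2095 (replicate 2 at 10 µM), and 2205, 2948 and 4012 (replicates 1, 2 and 3 at 2 µM). The direction of all 1046 genes was kept in each of these 18 fits. The genes were called from these same libraries, of which each fit dropped 1, so the kept direction is no further evidence. Fitting all groups of the batch together gave 31 calls, all among the 1046. With the mitochondrial share as a covariate 145 genes were called, 86 of them among the 1046, and without the 3 low-mitochondrial libraries 767, with 505 among them.

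Genes of protein synthesis and respiration were among those higher with paeoniflorin over 3 doses. Of 47 tested proteins of the cytosolic ribosome, 10 rose and 0 fell, beside 3.64% higher and 2.52% lower among all tested genes, with a list median of 0.13 on the log2 scale against -0.0044 for all genes. RPS7 was at 526, 587 and 713 CPM (lowest, median, highest) with paeoniflorin and 461, 491 and 517 CPM with albiflorin (log2 0.30, SE 0.052, adjusted p = 0.00892), with no overlap. Of 35 nuclear-encoded subunits of the respiratory chain, 8 rose and 0 fell, with a median of 0.19. COX6A1, a subunit of cytochrome c oxidase, was at 187, 236 and 317 against 156, 170 and 199 CPM (log2 0.46, SE 0.088, adjusted p = 0.0132). Here 7 of 9 paeoniflorin libraries were above every albiflorin library. Of the 13 protein-coding genes of the mitochondrial genome, in contrast, 0 passed, and all 13 were lower in mean with paeoniflorin, with a median of -0.50. MT-ND5, a complex I subunit, ranged from 856 to 6560 CPM with paeoniflorin and from 4590 to 7070 CPM with albiflorin (adjusted p = 0.0872). In the other 54 treated libraries of the batch, COX6A1 was above every vehicle library in 48 and below in 5. MT-ND5 was below in 43 and above in 4, and RPS7 was above in 27 and below in 22. A higher COX6A1 and a lower MT-ND5 than vehicle were thus not particular to paeoniflorin. Vehicle itself was at 175 to 190 CPM for COX6A1. Without the 3 low-mitochondrial libraries, 14 of 47 ribosomal proteins and 6 of 35 respiratory subunits rose and 0 fell, beside 461 higher and 306 lower of 17611 genes, and the median of the 13 mitochondrial genes was -0.041. With the mitochondrial share as a covariate, 4 ribosomal proteins and 0 respiratory subunits passed (medians 0.16 and 0.095). That fit called fewer genes in all, 102 higher and 43 lower of 16978. RPS7 kept its call with the covariate and without the 3 libraries (adjusted p = 0.00779 and 0.00385), and COX6A1 only without the libraries (0.0216, against 0.0746 with the covariate).

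Of 20 tested genes of the unfolded protein response, 4 rose and 0 fell over 3 doses, beside the same 3.64 and 2.52% of all genes, with a median of 0.16: PDIA4 and PDIA3, disulfide isomerases, and HYOU1 and MANF, a chaperone and a stress-induced secreted factor. Without the 3 libraries 2 of the 20 rose, and with the covariate 1, beside the counts over all genes given above for these fits. PDIA4 was at 285, 301 and 396 CPM with paeoniflorin and 252, 261 and 275 CPM with albiflorin (log2 0.26, SE 0.049, adjusted p = 0.0136), and no library overlapped. Of 22 cytosolic chaperones 1 rose and 2 fell, beside 3.64 and 2.52% of all genes. Without the 3 libraries 2 rose and 5 fell, beside the counts over all genes given above for that fit. HSPB1, a small heat shock protein, was at 381, 460 and 496 against 308, 325 and 406 CPM (log2 0.41, SE 0.063, adjusted p = 0.00456). HSPA1B, an inducible HSP70, was at 96, 114 and 155 against 134, 142 and 176 CPM (log2 -0.32, SE 0.070, adjusted p = 0.022), and its reads can be shared with the near-identical HSPA1A. HSPA1A had means of 199, 234 and 181 CPM with paeoniflorin at 10, 2 and 0.4 µM. With albiflorin its means were 204, 241 and 225 CPM, so HSPA1A was close between the isomers at 10 and 2 µM. Beside HSPA1B, the other member that fell was HSPH1 (log2 -0.14).

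The counts of cell cycle genes were near the 6.16% called over all genes. Of 40 tested genes of replication and the G1/S step, 3 rose (CCNE1, CDT1 and CDC45) and 0 fell, with a median of 0.099. CCNE1, cyclin E1, was at 25.5, 27.8 and 30.1 CPM with paeoniflorin, 21.6, 22.9 and 26.2 CPM with albiflorin and 18.8 to 20.7 CPM with vehicle (log2 between the isomers 0.24, SE 0.043, adjusted p = 0.00892). Of 40 genes of mitosis, 2 rose and 1 fell, with a median of -0.080. PTTG1, securin, which holds back sister chromatid separation, was one of the 2 (log2 0.55, SE 0.14, adjusted p = 0.0327), but its 99.4 to 152 CPM in 8 paeoniflorin libraries stood beside 266 CPM in the remaining library, which had 1.39% mitochondrial counts, against 84.4 to 100 CPM with albiflorin. CENPM, a centromere protein, had the same single high library, with 23.7 CPM against 11.6 to 14.8 CPM in the other 8. BUB1B, a checkpoint kinase, fell (log2 -0.15). In the Aurora B list 1 of 20 rose and 0 fell, the median was -0.095, and the gene that rose was AURKB itself (log2 0.14, SE 0.038, 1.1-fold, adjusted p = 0.0457). It kept its call in 7 of the 18 fits that left out 1 library, and had an adjusted p of 0.184 with the mitochondrial covariate and 0.0866 without the 3 libraries.

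Other lists held few calls, beside 3.64% higher and 2.52% lower among all genes. JUN, of the immediate early list, was called lower with paeoniflorin, with its values given below. In the immediate early, amino acid response and apoptosis lists, IER5, an immediate early gene, rose (log2 0.66, adjusted p = 0.0454), as did CEBPB, a transcription factor of the stress response (log2 0.57, adjusted p = 0.0333), and BAD, a promoter of apoptosis (log2 0.53, adjusted p = 0.0326). IER5, CEBPB and BAD were highest in the library with 1.39% mitochondrial counts, at 222, 357 and 49.8 CPM, against 58 to 91.3, 134 to 206 and 20.2 to 30.7 CPM in the other 8 paeoniflorin libraries. With the mitochondrial covariate IER5 differed by 0.13, CEBPB by 0.20 and BAD by 0.19, and none passed (adjusted p = 0.591, 0.275 and 0.245). Without the 3 libraries the differences were 0.23, 0.26 and 0.25, of which those of IER5 and CEBPB passed and that of BAD did not (adjusted p = 0.0279, 0.0206 and 0.0585). SKIL, a repressor of TGF-beta signalling, was lower in every paeoniflorin library than in any albiflorin library, at 55.6, 103 and 124 against 129, 134 and 154 CPM (log2 -0.45, SE 0.10, adjusted p = 0.0234). AXL, a receptor tyrosine kinase and YAP target, was at 151, 156 and 177 against 170, 186 and 203 CPM (log2 -0.23, SE 0.040, adjusted p = 0.00833). With ANKRD1 and PTPN14 it made up the 3 of 20 YAP targets that fell, and 0 rose, beside 2.52% lower and 3.64% higher among all genes. TXNRD1, thioredoxin reductase, fell by 0.16 on the log2 scale (adjusted p = 0.0335) among NRF2 targets of which TXN and CBR1 rose. TXN was at 409, 483 and 829 CPM with paeoniflorin and 371, 395 and 429 CPM with albiflorin, so the isomers overlapped. MT2A, a metallothionein, rose by 0.39 (adjusted p = 0.0265), but the isomers overlapped, at 56.6 to 94.1 against 45 to 63.9 CPM. With the mitochondrial covariate MT2A differed from vehicle by 0.15, 0.14 and 0.24 with paeoniflorin at 10, 2 and 0.4 µM. With albiflorin the values were -0.070, 0.064 and -0.047. Of the inflammatory, interferon, fatty acid synthesis, sugar transport and adenosine receptor lists, 0 of 19, 19, 13, 13 and 12 tested genes passed (edgeR). Over all tested genes 6.16% passed, so lists of this size could hold 0 calls without being unlike the rest. Beside list members, the rule on size picked TMEM238 (log2 1.29, adjusted p = 0.0157), and on the lower side ZFHX2 (-0.72), DISP1 (-0.61), which releases hedgehog ligands, and GRIN3A (-0.61), an NMDA receptor subunit, all below 6 CPM in every library. TMEM238 overlapped between the isomers, at 1.08 to 5.07 CPM with paeoniflorin and 0.368 to 1.61 CPM with albiflorin. With the mitochondrial covariate TMEM238 differed from vehicle by -0.56, -0.31 and 0.090 with paeoniflorin at 10, 2 and 0.4 µM. With albiflorin the values were -0.76, -0.80 and -1.41. The rule also picked the readthrough genes ZFP91-CNTF, NME1-NME2 and ST20-MTHFS and the intronic transcript ANKRD10-IT1, whose reads overlap those of other genes and are uncertain. ZFP91-CNTF was at 0 in all 9 albiflorin libraries and at 0 to 2.74 CPM with paeoniflorin, so no fold is given.

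**Figure D3:**
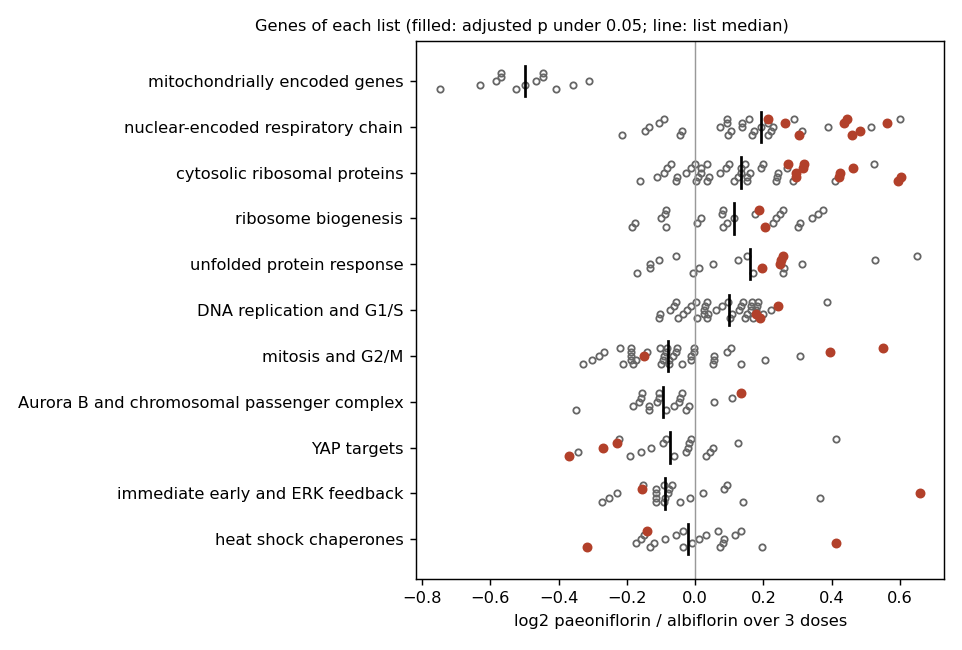
Log2 difference between paeoniflorin and albiflorin over 3 doses for each tested gene (circles) of 11 lists; filled circles passed an adjusted p under 0.05 and vertical lines are list medians. The mitochondrially encoded genes lie to the left with a median of -0.50, and the respiratory chain and ribosomal protein lists to the right with medians of 0.19 and 0.13.

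The called genes also differed in base composition. The 618 genes higher with paeoniflorin had a median GC content of 56.6% and a median transcript length of 820 bases, and the 428 lower genes 43.2% and 1494 bases, against 50.1% and 1062 bases for all tested genes. Across 16852 genes of these same libraries, which are not independent replicates, the correlation of the log2 difference with GC content was 0.295 over 3 doses, and 0.218, 0.299 and 0.12 at 10, 2 and 0.4 µM. By library, mean GC content outside the mitochondrial genes was 51.81% in replicate 1 of paeoniflorin at 2 µM, the library with 1.39% mitochondrial counts. In the other libraries it was 50.4 to 50.92%. The part of base composition, or of this library's, in the calls was not tested.

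The isomers also differ in the series of their sample codes. The codes of albiflorin begin with 6, as do those of benzoic acid, and the codes of paeoniflorin begin with 9, as do those of oleanolic acid. Compound and code series therefore cannot be told apart between the isomers, and oleanolic against benzoic acid, which are not isomers, gives the same pair of series at 0.4 µM. In that comparison 0 of 16873 genes (0%) passed edgeR's test (1252 at an unadjusted p under 0.05, and 47 with DESeq2). The genes called between the isomers over 3 doses nevertheless had the same sign there in 989 of 1040 cases (95.1%), against 10622 of 16706 (63.6%) of all genes tested in both. The median log2 difference was 0.33 between the isomers and 0.18 between the other pair for the higher genes, and -0.25 and -0.17 for the lower ones. C19orf70 differed by 0.64 (SE 0.13) in the other pair, ATPIF1 by 0.44 (SE 0.10), CST3 by 0.46 (SE 0.13) and MIPOL1 by -0.35 (SE 0.074), close to the isomer values of 0.52, 0.41, 0.61 and -0.38. PER1 was unlike them, with -0.033 (SE 0.098) in the other pair and -0.42 between the isomers.

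A joint fit of these groups, added after the values were seen, took the difference between the isomers over 3 doses beyond that between oleanolic and benzoic acid at 0.4 µM. It called 0 genes (466 at an unadjusted p under 0.05), and 878 of the 1046 genes kept their direction. For RPS7 it was -0.012 and for HSPA1B 0.080, each opposite in sign to the difference between the isomers. The remainder was -0.12 (SE 0.15) for C19orf70, -0.018 (SE 0.12) for ATPIF1, 0.15 (SE 0.17) for CST3 and -0.028 (SE 0.091) for MIPOL1. For PER1 it was -0.38 (SE 0.11, adjusted p = 0.904). The standard errors are larger than those of the isomer difference alone, so a smaller difference could be missed here. In the other 18 groups of the batch, scaled together, PER1 had group means of 11.7 to 15.4 CPM and all 18 were below the vehicle mean of 16.2 CPM. Albiflorin had group means of 15.5 to 16.1 CPM and vehicle 16.1 CPM when scaled with paeoniflorin. CST3 had means of 88.3 to 178 CPM with a median of 134 CPM in those groups, against group means of 86.3 to 89.9 CPM with albiflorin and 125 to 145 CPM with paeoniflorin.

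**Figure D4:**
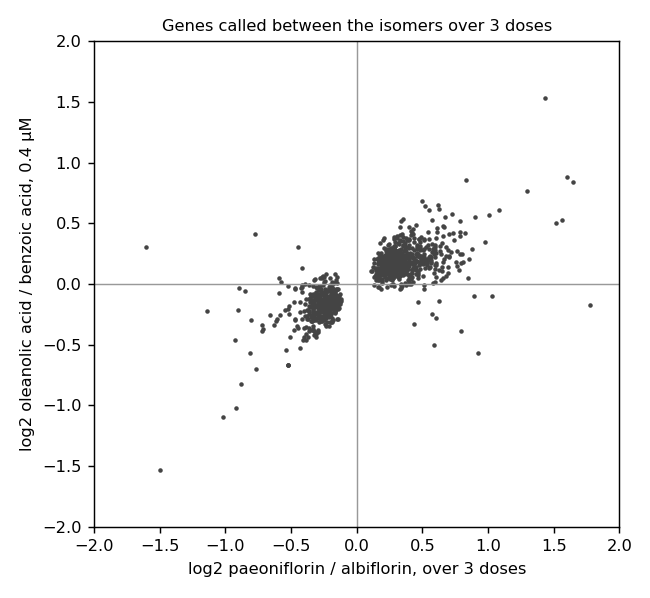
Log2 difference between paeoniflorin and albiflorin over 3 doses (x axis) against that between oleanolic and benzoic acid at 0.4 µM (y axis) for genes called between the isomers; points are genes, and 7 of 1040 lie beyond the axes. Of the 1040 genes, 989 have the same sign in both.

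Against vehicle, 6 genes were called with both isomers at every dose. JUN, a subunit of the AP-1 transcription factor, KLF2 and KLF6, zinc finger factors induced by flow and growth signals, and CTGF (now CCN2) and AMOTL2, targets of the YAP coactivator, fell in all 6 comparisons, and CLK1, a kinase of splicing factors, rose in all 6. The 6 comparisons share the same 3 vehicle libraries. Paeoniflorin had 44 genes called at 10 µM (0.259%, 13 higher and 31 lower), 83 at 2 µM (0.489%, 38 and 45) and 45 at 0.4 µM (0.265%, 13 and 32). The higher and lower genes were 0.0766 and 0.183% of those tested at 10 µM, 0.224 and 0.265% at 2 µM and 0.0766 and 0.188% at 0.4 µM. Albiflorin had 7 at each dose (0.0412%): 1 higher (0.00589%) and 6 lower (0.0353%) at 10 µM, and 2 higher (0.0118%) and 5 lower (0.0294%) at 2 and at 0.4 µM. DESeq2 called 250, 1780 and 326 genes with paeoniflorin and 24, 14 and 15 with albiflorin. Without 1 library, the counts ran from 12 to 93, from 7 to 4117 and from 10 to 95 with paeoniflorin, and from 1 to 5 with albiflorin. The high count at 2 µM came without replicate 3 of paeoniflorin, and leaving out replicate 2 gave 3277. These fits keep replicate 1, the library with 1.39% mitochondrial counts, and leaving out replicate 1 gave 62. Without any 1 vehicle library, 7 to 11 were called at 2 µM.

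JUN read 35, 33.4 and 31.9 CPM with vehicle. With paeoniflorin it read 19, 19 and 20.3 CPM at 10 µM, 23.4, 19.2 and 19.7 at 2 µM, and 19.3, 19.5 and 19 at 0.4 µM. With albiflorin it read 21.8, 20.5 and 21.3, then 23.4, 22.4 and 23.2, then 22.7, 21.6 and 21.9 CPM in the same order of doses. Every treated library was below every vehicle library, and 8 of 9 paeoniflorin libraries were below all albiflorin libraries. The log2 change was -0.78 (SE 0.074, adjusted p = 5.91e-05), -0.69 and -0.79 for paeoniflorin and -0.66 (SE 0.073, adjusted p = 0.000831), -0.54 and -0.60 for albiflorin. Between the isomers over 3 doses JUN differed by -0.16 (SE 0.043, adjusted p = 0.0422), and in 4 of the 18 fits without 1 library it stayed called. When all groups of the batch were fitted together, JUN at 10 µM albiflorin had an adjusted p of 1, with the same log2 value of -0.66.

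CLK1 read 13, 15.7 and 16.8 CPM with vehicle, 28 to 37.3 CPM over the 9 paeoniflorin libraries and 23.7 to 29.2 CPM over the 9 albiflorin libraries. Its log2 rise was 1.12, 1.11 and 1.14 with paeoniflorin and 0.80, 0.79 and 0.84 with albiflorin at 10, 2 and 0.4 µM (SE 0.11 each). Between the isomers CLK1 was 1.24-fold higher with paeoniflorin over 3 doses (log2 0.31, SE 0.064, adjusted p = 0.0157), with 8 of 9 paeoniflorin libraries above all albiflorin ones. With the mitochondrial covariate that adjusted p was 0.095. In the oleanolic and benzoic acid pair CLK1 differed by 0.22 (SE 0.10).

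KLF2 read 20.2 to 23.8 CPM with vehicle, 9.27 to 12 CPM with paeoniflorin and 9.49 to 14.2 CPM with albiflorin. It fell by 1.06, 1.11 and 1.03 on the log2 scale with paeoniflorin and by 0.93, 0.95 and 0.97 with albiflorin (SE 0.16 each). Without the 3 low-mitochondrial libraries the adjusted p at 10 µM of paeoniflorin, then a single library, was 0.0507. Replicate 1 of albiflorin was the highest at each dose, at 13.8, 14.2 and 12.9 CPM. KLF6 read 72 to 81.5 CPM with vehicle, 43.9 to 55.3 with paeoniflorin and 51 to 54.7 with albiflorin. AMOTL2, which restrains YAP in turn, read 67.1 to 71.6, 39.6 to 48.4 and 40.4 to 48.9 CPM. For KLF6, 7 of 9 paeoniflorin libraries were below all albiflorin libraries and 1 was above all of them. For AMOTL2, 3 of 9 were below all. Between the isomers over 3 doses KLF2 differed by -0.12 (95% interval -0.31 to 0.078), AMOTL2 by -0.021 (-0.12 to 0.077) and CTGF by -0.085 (-0.21 to 0.043), and none of these passed (adjusted p = 0.388, 0.779 and 0.338). At 10 µM the KLF2 call of albiflorin held in 1 of 6 fits without 1 library, that of CTGF in 2 of 6, that of CLK1 in 4 of 6, and those of JUN and AMOTL2 in all 6. In 2 of these 6 fits 2 genes were called in all, so the KLF6 call was lost in them too.

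CTGF encodes a matricellular protein and is, with ANKRD1 and CYR61 (now CCN1), a usual readout of YAP. Its RefSeq promoter is shown because CTGF fell with both isomers at every dose, and that of ANKRD1 because the gene was called against vehicle with paeoniflorin and also differed between the isomers. The 250 bases before the start are given 5′ to 3′ on the gene's strand (GRCh38.p14), with GGAATG, the core of the site of the TEAD factors through which YAP acts, in capitals. That of JUN carries in capitals TGACATCA, the AP-1-like letters through which JUN can act on its own gene.

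CTGF, minus strand of chr6:131951373-131951622: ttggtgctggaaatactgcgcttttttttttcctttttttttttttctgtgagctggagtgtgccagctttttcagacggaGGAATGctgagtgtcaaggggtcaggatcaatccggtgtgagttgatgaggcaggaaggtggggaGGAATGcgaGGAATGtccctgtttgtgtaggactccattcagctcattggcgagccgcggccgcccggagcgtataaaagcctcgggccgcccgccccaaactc

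ANKRD1, minus strand of chr10:90921088-90921337: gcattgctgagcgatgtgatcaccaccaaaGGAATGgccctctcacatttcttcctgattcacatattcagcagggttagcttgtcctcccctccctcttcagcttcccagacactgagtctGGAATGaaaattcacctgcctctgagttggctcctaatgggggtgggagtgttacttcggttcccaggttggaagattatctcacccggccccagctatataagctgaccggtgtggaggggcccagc

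JUN, minus strand of chr1:58784048-58784297: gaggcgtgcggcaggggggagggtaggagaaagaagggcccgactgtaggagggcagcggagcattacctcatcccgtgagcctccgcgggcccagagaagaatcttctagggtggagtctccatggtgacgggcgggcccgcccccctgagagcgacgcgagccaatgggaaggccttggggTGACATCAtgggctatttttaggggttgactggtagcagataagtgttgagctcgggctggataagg

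On either strand, GGAATG occurred 3 times in the window of CTGF and 2 times in that of ANKRD1, and 0 times in those of AMOTL2, JUN, KLF2, KLF6, CLK1, RHOB, MAT2A and HSPA1B. Of 27305 RefSeq promoters, 11.9% held it within 250 bases, as did 6 of the 16 YAP target genes found in the table (37.5%). TGACATCA was found 1 time each for JUN and KLF6, and in 2.45% of promoters. These matches describe letters, not binding. The promoters of 10 of 11 genes looked up were in the table.

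CTGF read 42.2, 37.4 and 36.2 CPM with vehicle, 20.4 to 26.7 CPM with paeoniflorin and 20.8 to 26.7 CPM with albiflorin. It fell by 0.75, 0.76 and 0.70 on the log2 scale with paeoniflorin and by 0.66, 0.66 and 0.62 with albiflorin (SE 0.11 each). The isomers covered the same range. ANKRD1 read 14.7, 14.4 and 17.6 CPM with vehicle, 6.96 to 9.34 CPM with paeoniflorin and 9.53 to 13.6 CPM with albiflorin, so the 3 groups did not overlap. It fell by 0.88, 0.87 and 0.88 with paeoniflorin (SE 0.14, adjusted p = 0.00592, 0.00886 and 0.00567). With albiflorin the values were -0.47, -0.48 and -0.58 (SE 0.13, adjusted p = 0.631, 0.695 and 0.27). The difference between the isomers over 3 doses was -0.37 (SE 0.079, adjusted p = 0.0192), and it was called in 15 of 18 fits without 1 library. With the mitochondrial covariate its adjusted p was 0.0809, and beyond the oleanolic and benzoic acid pair, which itself differed by -0.29 (SE 0.11), the remainder was -0.079 (SE 0.15). Without the 3 low-mitochondrial libraries the adjusted p of ANKRD1 against vehicle at 10 µM of paeoniflorin, then 1 library, was 0.0964. CYR61 read 22.9 to 30.1 CPM with vehicle, 16.9 to 20.6 with paeoniflorin and 16.3 to 20.3 with albiflorin, with no overlap between treated and vehicle, and was called at 2 µM of paeoniflorin (adjusted p = 0.0432) and 10 µM of albiflorin (0.0447). Over the YAP list, 4, 4 and 3 of 20 genes fell with paeoniflorin at 10, 2 and 0.4 µM, beside 0.183, 0.265 and 0.188% lower among all genes. With albiflorin 3, 2 and 2 fell, beside 0.0353, 0.0294 and 0.0294%, and 0 rose with either. Without the 3 low-mitochondrial libraries 3 (from 1 paeoniflorin library), 5 and 13 fell with paeoniflorin, beside 28, 112 and 1014 of 17611 genes, and 4, 3 and 4 with albiflorin, beside 27, 13 and 20.

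Of 23 immediate early and ERK feedback genes, 4, 5 and 4 fell with paeoniflorin and 3, 3 and 3 with albiflorin, and 0 rose, beside the same shares of all genes. Without the 3 libraries 7 and 7 fell with paeoniflorin at 2 and 0.4 µM, beside 112 and 1014 lower of 17611 genes. With albiflorin 4, 3 and 4 fell at 10, 2 and 0.4 µM, beside 27, 13 and 20. DUSP1, a MAP kinase phosphatase, was called with paeoniflorin at each dose, at -0.51, -0.41 and -0.39, against -0.39, -0.28 and -0.38 with albiflorin, which did not pass. Of 22 chaperones 2, 2 and 4 fell with paeoniflorin and 0 with albiflorin at any dose, beside the same shares of all genes. Without the 3 libraries 6 and 7 fell with paeoniflorin at 2 and 0.4 µM, beside the same 112 and 1014 of all genes. With albiflorin 4, 1 and 1 fell at 10, 2 and 0.4 µM, beside the same 27, 13 and 20. HSPA1B read 202 to 209 CPM with vehicle, 96 to 155 with paeoniflorin and 134 to 176 with albiflorin. It fell by 0.89, 0.73 and 0.83 with paeoniflorin, and the albiflorin values were -0.60, -0.40 and -0.50 (adjusted p = 0.119, 0.797 and 0.33). HSPA1B was called with albiflorin at all doses when the mitochondrial share was a covariate (log2 -0.58, -0.44 and -0.48, adjusted p = 0.000349, 0.00972 and 0.00452) and when the 3 libraries were left out (adjusted p = 0.00046, 0.028 and 0.00262). DNAJB4, a co-chaperone, was called with paeoniflorin at each dose and not with albiflorin, at -0.61, -0.61 and -0.49 against -0.48, -0.41 and -0.37, and the difference between the isomers over 3 doses did not pass (log2 -0.15, SE 0.053, adjusted p = 0.0808). RHOB, a small GTPase, read 152 to 159, 83.3 to 116 and 98.2 to 117 CPM. It fell by 0.80, 0.69 and 0.75 with paeoniflorin, with an adjusted p of 0.235 at 10 µM when all groups of the batch were fitted together. With albiflorin the RHOB values were -0.578, -0.555 and -0.525, which did not pass. With the mitochondrial covariate their adjusted p was 0.0256, 0.0417 and 0.0697 at 10, 2 and 0.4 µM.

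Among genes that rose, AXIN2, a target and inhibitor of Wnt signalling, read 3.96 to 4.47 CPM with vehicle, 6.65 to 7.91 with paeoniflorin and 4.68 to 8.73 with albiflorin. At 10 µM paeoniflorin it rose by 0.82 on the log2 scale (SE 0.16, adjusted p = 0.0378), a call that held in 1 of 6 fits without 1 library and had an adjusted p of 0.0593 with the mitochondrial covariate. It was also called at 2 µM of paeoniflorin (0.0394), and rose by 0.743 at 0.4 µM without passing. With albiflorin AXIN2 rose by 0.665, 0.542 and 0.81 at 10, 2 and 0.4 µM, which did not pass. Above all albiflorin libraries lay 0 of the 9 paeoniflorin libraries. CCNE1 rose with paeoniflorin by 0.46, 0.46 and 0.54 (adjusted p = 0.0105, 0.0118 and 0.0037), against 0.20, 0.21 and 0.31 with albiflorin, which did not pass. TOE1 rose by 0.45 at 10 µM (adjusted p = 0.0481) and by 0.42 at 2 µM (0.0453), and at 10 µM stayed called in 0 of 6 fits without 1 library. MAT2A, which makes the methyl donor S-adenosylmethionine, read 342 to 374 CPM with vehicle, 434 to 498 with paeoniflorin and 426 to 469 with albiflorin, and was called in 4 of the 6 comparisons. Of all genes called against vehicle, 6 were called in 6 comparisons, 72 in 1, 24 in 2, 11 in 3, 1 in 4 and 0 in 5.

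**Figure D5:**
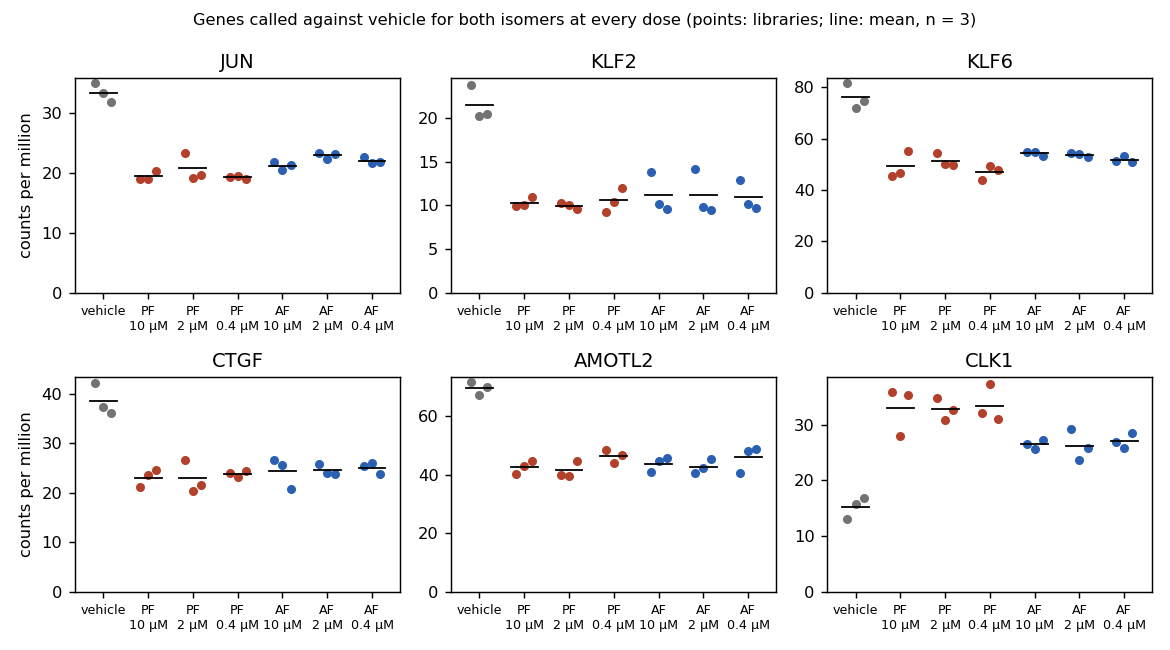
CPM in each library (points) with means of 3 (lines) for the 6 genes called in all 6 comparisons with vehicle, for vehicle, paeoniflorin (PF) and albiflorin (AF); the y axes start at 0. JUN, KLF2, KLF6, CTGF and AMOTL2 lie below and CLK1 above the vehicle libraries at each dose.

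The 6 genes lay on the same side of vehicle with most of the other ingredients. In the other 54 treated libraries of the batch, which hold 18 groups of the other ingredients, KLF2, KLF6 and CTGF were below every vehicle library in 54 of 54 and AMOTL2 in 53, and CLK1 was above every vehicle library in 54 of 54. JUN was below in 44 and above in 8. Among genes called with paeoniflorin and not with albiflorin, DNAJB4 was below every vehicle library in 54 of those 54 libraries, HSPA1B in 53, ANKRD1 in 49 and DUSP1 in 48, and CCNE1 was above in 54. The same 3 vehicle libraries serve all of these comparisons, so a shift of the vehicle libraries and a response common to all ingredients cannot be told apart.

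Neither isomer showed a dose trend that passed the test. Per 5-fold step in dose, 0 of 16978 genes (0%) were called for paeoniflorin (450 at an unadjusted p under 0.05, and 1 with DESeq2) and 0 (0%) for albiflorin (139, and 0 with DESeq2). The difference between the 2 trends gave 0 calls (0%, 254 unadjusted, and 2 with DESeq2). For genes that differed from vehicle, the slopes were small. JUN had a slope of 0.0056 (95% interval -0.072 to 0.083) per step with paeoniflorin and of -0.029 (-0.11 to 0.048) with albiflorin. CLK1 had slopes of -0.0091 (-0.13 to 0.11) and -0.018 (-0.14 to 0.099), and KLF2 of -0.015 (-0.18 to 0.15) and 0.020 (-0.15 to 0.19). AURKB had slopes of -0.033 (-0.10 to 0.037) and -0.0079 (-0.078 to 0.062). The intervals bound a change of these genes across the doses but do not show that there was none.

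The genes with the smallest p-values for a trend were low. SRRM5 had the smallest p for the difference of the trends, with a slope of 0.31 (SE 0.093) per step for paeoniflorin, -0.28 (SE 0.098) for albiflorin and a difference of 0.59 (SE 0.14, adjusted p = 1). MED14OS, an antisense RNA, whose reads cannot be told from those of its partner if strand was not used in counting, read 1.61, 1.49 and 1.39 CPM at 10 µM, 1.13, 1.02 and 1.17 at 2 µM and 0.773, 1.08 and 0.584 at 0.4 µM of paeoniflorin. Its slope was 0.43 (SE 0.10, adjusted p = 1). With albiflorin it read 1.22, 1.14 and 1.26, then 1.3, 1.53 and 1.37, then 1.54, 1.42 and 1.39 CPM. HGF, hepatocyte growth factor, read 1.36, 1.3 and 1.1 CPM at 10 µM and 0.679, 0.835 and 0.696 CPM at 0.4 µM of albiflorin, without overlap, for a slope of 0.38 (SE 0.11, adjusted p = 1). With paeoniflorin HGF read 1.04 to 1.12 CPM at 10 µM and 1 to 1.51 CPM at 0.4 µM. PMEL, a melanosome protein, followed albiflorin with a slope of 0.44 (SE 0.11), at 1.26 to 1.39 CPM at 10 µM and 0.532 to 0.944 CPM at 0.4 µM. RNLS had the second smallest p with paeoniflorin, with a slope of -0.29 (SE 0.076), at 2.16 to 3.8 CPM at 10 µM and 4.38 to 5.11 CPM at 0.4 µM.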

How the data were processed

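RNA from A549 cells was sequenced from a strand-marking library kit, per the labels' protocols. The authors deposited expected counts per gene from RSEM 1.3.3, with FastQC, Trim Galore and STAR also named, on GRCh38, per the submitters' processing notes. The annotation, the settings and whether RSEM used strand could not be read from these sources. The deposited expected counts were rounded to whole numbers, and 89.2% of values were already whole. Counts of both isomers and the vehicle of their batch (21 libraries, 7 groups) were filtered with filterByExpr, scaled by TMM and tested in 1 fit with the quasi-likelihood test of edgeR 4.0.16 (limma 3.58.1, R 4.3.3), with Benjamini-Hochberg adjustment at 0.05 and 14 residual degrees of freedom. Oleanolic and benzoic acid were fitted apart (6 groups, 16873 genes). CPM values use TMM-scaled library sizes. None of the 21 replicate pairs had identical values.

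Genes were named by rule: per comparison, up to 4 with the largest rise and 4 with the largest fall past the threshold, with at least 1 CPM and without overlap where 2 groups were compared. Where fewer than 4 passed, those of smallest unadjusted p were added. The passenger complex genes and up to 2 members of each list were named too. Genes beyond the rule were followed after their values were seen. The members and lists were chosen with earlier results of these data known. The test was tried on simulated counts with known changes. Alternatives were DESeq2 1.42.0, its size factors, other filters, robust dispersion, all groups of the batch, no mitochondrial genes, a replicate block and leaving out each library. A fit without 3 libraries, a mitochondrial covariate and a joint fit with the check pair were chosen after seeing the data.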

Additional observations from a re-analysis of the deposited data

How the results depend on the processing

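The counts between the isomers, at each dose and over 3 doses, and the counts against vehicle moved with the processing. So did those for the paeoniflorin trend, the difference of the trends and oleanolic against benzoic acid. With no filter on low counts, 1 gene was called between the isomers at 10 µM and 60 at 2 µM, 1186 for 2 µM paeoniflorin against vehicle and 18 for oleanolic against benzoic acid. With all 25 groups of the batch in the fit, 31 were called over 3 doses, and 42 and 25 for 2 and 0.4 µM paeoniflorin against vehicle. DESeq2 called 19 and 27 between the isomers at 10 and 2 µM and 2358 over 3 doses. Against vehicle it called 250, 1780 and 326 for paeoniflorin and 24, 14 and 15 for albiflorin at 10, 2 and 0.4 µM. It called 1 for the paeoniflorin trend, 2 for the difference of the trends and 47 for oleanolic against benzoic acid. With the mitochondrial covariate, 1 gene was called at 2 µM and 145 over 3 doses, and against vehicle 71, 35 and 344 for paeoniflorin at 10, 2 and 0.4 µM and 20 for 10 µM albiflorin. Without the 3 low-mitochondrial libraries, 12 were called between the isomers at 0.4 µM, 191 and 1868 for 2 and 0.4 µM paeoniflorin against vehicle, and 42, 22 and 41 for albiflorin. Beyond the oleanolic and benzoic acid pair, 0 were called over 3 doses. The cause of these moves was not tested.

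Leaving out 1 library gave 0 to 0 calls between the isomers at 10 µM, 0 to 2068 at 2 µM, 0 to 0 at 0.4 µM and 178 to 4012 over 3 doses. Against vehicle it gave 12 to 93, 7 to 4117 and 10 to 95 for paeoniflorin and 2 to 5, 1 to 4 and 4 to 5 for albiflorin, and 0 for every trend and for the check pair. The mitochondrial share difference ranged from -8.48 to -2.82 points at 10 µM, -7.31 to -1.52 at 2 µM, -1.88 to -0.488 at 0.4 µM and -4.62 to -2.76 over 3 doses.

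With the replicate block, 130 genes were called for 2 µM paeoniflorin against vehicle and 1093 over 3 doses, 959 of them among the 1046. Whether the numbers pair the samples could not be read from the labels. The correlation of same-numbered libraries was -0.151 to 0.366 over 9 pairs, and 3 were above 0.1. In 5 of 9 cases the best correlation was with the same number. All same-numbered correlations were positive at 10 and 2 µM and negative at 0.4 µM. Pairing is therefore neither shown nor excluded.

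Among single genes over 3 doses, NME1-NME2 turned to -0.070 with the covariate. Beyond the check pair the sign turned for ST20-MTHFS (-0.095), ANKRD10-IT1 (0.084), CDT1 (-0.16), HSPA1B (0.080), RRM2B (0.0098), STARD4 (0.13), POLR1C (-0.016) and RPS7 (-0.012). Of the other values for single genes outside the fits without 1 library, 1101 kept direction and call, 156 lost the call and 50 gained it. With 3 libraries per group, the 95% interval of the isomer difference at 1 dose lay within 1.5-fold for 59.1, 51.7 and 62.5% of genes at 10, 2 and 0.4 µM, so smaller differences could be missed.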
